A study of Rattus norvegicus with 3 samples.

Results

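Rab GTPases are small membrane-bound switches that tell vesicles where to go. Bound to GTP, a Rab sits on 1 compartment and recruits effectors that tether, move or fuse vesicles there, and guanine nucleotide exchange factors, GTPase-activating proteins and the GDP dissociation inhibitors turn it on, turn it off and carry it between membranes. In chromaffin cells of the adrenal medulla, which store catecholamines and neuropeptides in dense-core granules, Rabs of the Golgi serve granule formation, Rab27 proteins help dock granules at the plasma membrane, and endosomal Rabs take back granule membrane after release.

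The genes described here are the Rab GTPase genes other than Rab3a to Rab3d. A probe set was taken where the platform annotation gave it a single symbol made of Rab, a number and at most a letter, so that Rab30 to Rab39 stayed in and interacting proteins such as the Rab11fip genes stayed out. This gave 92 probe sets of 52 genes, out of 14217 genes with a single symbol on the array, and each gene was represented by the probe set with the highest mean over 1-day array b and the 7-day array. By main site of action, 25 of the 52 are endosomal, 15 act at the Golgi and endoplasmic reticulum (ER), 8 are secretory and 4 are none of these. The classes follow textbook roles, and many Rabs act at more than 1 site.

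Total RNA labelled as adrenal medulla of rats (Rattus norvegicus) was measured after 1 day in the cold (2 arrays, a and b) or 7 days in the cold (1 array), and unexposed rats are not analysed here. The labels used here give no strain, age or sex of the animals, and do not tie the 1-day pair to different animals, so a p-value measures only the spread between these arrays, which may be technical, and 3 arrays limit the precision of every value. The values are deposited intensities that appear, from their nearly equal trimmed means, to have been scaled. Their median intensities are not equal, at 1583, 592.9 and 674.8 on arrays a, b and 7-day. A difference from array a therefore depends on the scaling chosen. Differences are given on the log2(intensity + 16) scale, where 1 is a doubling for bright probe sets and less than that for dim ones.

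Array a stood apart from both others before any Rab was looked at. Its Spearman correlation over gene probe sets was 0.664 with array b and 0.684 with the 7-day array, against 0.939 between the latter, and its beta-actin signal at the 3′ end of the transcript was 231 times that at the 5′ end, against 6.11 and 8.87 times. Comparisons are therefore made with array b and with array a separately, though many values of single genes and lists are given against array b only. The chromaffin markers Th, Dbh, Pnmt and Chga were bright on all arrays (lowest 79575, for Th on array a), and so was Star of the adrenal cortex (lowest 208111, on array b), so RNA of both parts of the gland was measured. All 10 cortex markers past the filter read higher on the 7-day array than on array b (median 0.37, and 0.21 with quantile normalisation). Against array a, 6 were higher and 4 lower (median 0.40), the 4 being Star, Fdx1, Hsd3b1 and Cyp21a1. The geometric mean intensity of the 10 was 75956, 99596 and 130025 on arrays a, b and 7-day. Scarb1 and Cyp11b1 read 10699 and 2012 on array a, against 122353 and 33603 on array b. Of 12 chromaffin markers, 5 read lower on the 7-day array than on array b, with a median of 0.11 that became -0.16 with quantile normalisation. Of 8 macrophage and lymphocyte markers past the filter, 7 read lower than array b (median -0.11), with Cd163 and Fcer1g at -0.63 and Tyrobp at -0.62, while Ptprc stood at 1.15. Lists for Schwann cells and endothelium had medians of -0.06 and 0.04 from array b. Against array a, 6 of the 8 macrophage and lymphocyte markers were higher (median 0.19). The medians from array a were 0.51 for chromaffin, -0.01 for Schwann cell and 0.24 for endothelial markers. In such bulk RNA, fewer cells of a type and less RNA per cell cannot be told apart, and the part of these other cell types in the Rab values below was not tested.

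The start-site sequences show what most of the expressed Rabs share and which ones differ. Of the 52 genes, 41 had a promoter window (250 bases before to 50 after the start) in RefSeq's table for build GRCr8. These 41 held a median of 21 CG dinucleotides, and the 32 of Rab genes past the intensity filter held 23.5. The windows of all genes past that filter had a median of 22, while the median over all 27457 windows of the table was 7. The GC box GGGCGG, searched on both strands, was in 28 of 32 windows of Rab genes past the filter (87.5%), against 65.6% of windows of all genes past it and 34.9% of all windows. The cyclic AMP response element TGACGTCA was in 0 of those 32 (3.52% of windows past the filter), its core TGACG in 31.2% (33.9%), the E-box CACGTG in 12.5% (9.73%), and the box TATAAA in 0 of 32 (6.67%). A full response element contains the core. These matches describe the letters in the window and are no evidence of binding.

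The 4 windows printed here belong, among Rabs past the intensity filter, to the highest on the 7-day array relative to array b (Rab7b), to 2 of the lowest (Rab15 and Rab13), and to a bright Golgi Rab for contrast (Rab1a). Capitals mark the GC box, the E-box and the core TGACG on either strand.
Rab7b (chr13:45673195-45673494, plus strand, 6 CG dinucleotides): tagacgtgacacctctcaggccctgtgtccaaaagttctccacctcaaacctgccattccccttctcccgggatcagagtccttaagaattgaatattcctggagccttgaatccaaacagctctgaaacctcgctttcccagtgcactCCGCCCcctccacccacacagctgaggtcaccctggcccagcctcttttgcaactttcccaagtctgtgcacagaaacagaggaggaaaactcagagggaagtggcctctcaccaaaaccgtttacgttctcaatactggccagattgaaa
Rab15 (chr6:101257034-101257333, minus strand, 13 CG dinucleotides): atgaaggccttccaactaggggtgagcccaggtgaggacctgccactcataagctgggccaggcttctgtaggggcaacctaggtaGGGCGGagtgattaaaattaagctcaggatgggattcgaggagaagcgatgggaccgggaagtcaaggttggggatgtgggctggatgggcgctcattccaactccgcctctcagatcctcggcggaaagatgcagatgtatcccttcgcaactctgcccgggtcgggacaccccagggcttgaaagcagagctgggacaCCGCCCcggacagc
Rab13 (chr2:177972720-177973019, plus strand, 14 CG dinucleotides): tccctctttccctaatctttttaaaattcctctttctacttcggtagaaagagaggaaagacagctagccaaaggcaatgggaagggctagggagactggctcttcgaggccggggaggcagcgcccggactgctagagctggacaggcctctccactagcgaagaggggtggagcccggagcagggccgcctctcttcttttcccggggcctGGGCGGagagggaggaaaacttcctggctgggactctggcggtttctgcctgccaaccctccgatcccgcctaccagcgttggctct
Rab1a (chr14:98623427-98623726, plus strand, 30 CG dinucleotides): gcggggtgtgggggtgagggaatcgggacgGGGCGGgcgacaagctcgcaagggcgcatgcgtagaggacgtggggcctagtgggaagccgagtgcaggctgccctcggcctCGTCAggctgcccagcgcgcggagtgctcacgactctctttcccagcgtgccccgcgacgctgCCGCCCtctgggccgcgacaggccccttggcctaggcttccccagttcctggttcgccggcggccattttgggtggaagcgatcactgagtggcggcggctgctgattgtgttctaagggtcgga
The first 3 windows are poorer in CG than the median Rab window (21), Rab7b by the widest margin, whereas that of Rab1a is richer. A low CG count was not shared by all of the lowest Rabs. Rab21 (-0.50 from array b) and Rab28 (-0.41) held 28 and 24 CG dinucleotides. Each of the 4 holds at least 1 GC box, and only Rab1a holds a TGACG among them.

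The 7-day array was set against the 1-day arrays to ask whether Rab genes differ with the length of exposure. Of the 52 genes, 39 passed the filter, a mean log2 value over the 3 arrays of at least 9.60 (an intensity of 759), and 13 did not. With limma fitted to all 15521 probe sets past the filter, 0 of the 39 Rab genes had an adjusted p under 0.05, and neither did any other probe set (0.00%). An unadjusted p under 0.05 was found for 0 Rab genes and for 70 probe sets in all (3 without the intensity trend and 64 with robust fitting). Among the probe sets that represent the 39 genes, that of Rab1b had the lowest p in limma, at 1.80 above the mean of the 1-day arrays. A second probe set of Rab7a, at 1.77, had a lower p than that of Rab1b. The standard errors of the 39 Rab differences ran from 0.90 to 2.58 (median 0.95), because the only replicate spread is that between arrays a and b. The fit assumes that the lone 7-day array varies as they do.

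Relative to array b alone, the Rab genes as a group read nearly the same on the 7-day array. Of the 39, 20 were lower and 19 higher, a share of 51.3% lower against 51.5% of all 9252 genes past the filter, and the median was -0.01 for the Rabs and -0.01 for all genes. The differences ran from -0.58 (Rab26) to 0.88 (Rab7b) with a standard deviation of 0.28 across Rab genes, against 0.33 across all genes. On the log2(intensity + 16) scale 1 of the 39, Rab7b, differed at least 1.5-fold from array b in either direction, where 7.33% of all genes did. Rab26 lay just inside that limit on this scale and just outside it with a pseudocount of 1 (-0.59) or as a ratio of intensities (1.51-fold lower). With each array centred on its median, all differences from array b drop by 0.18, which turns 33 of the 39 Rabs lower as it does 7005 of the 9252 genes, so the sign of a difference within 0.18 above 0 depends on the scaling. This sets 1 array against 1 array, with no p-value.

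**Figure D1:**
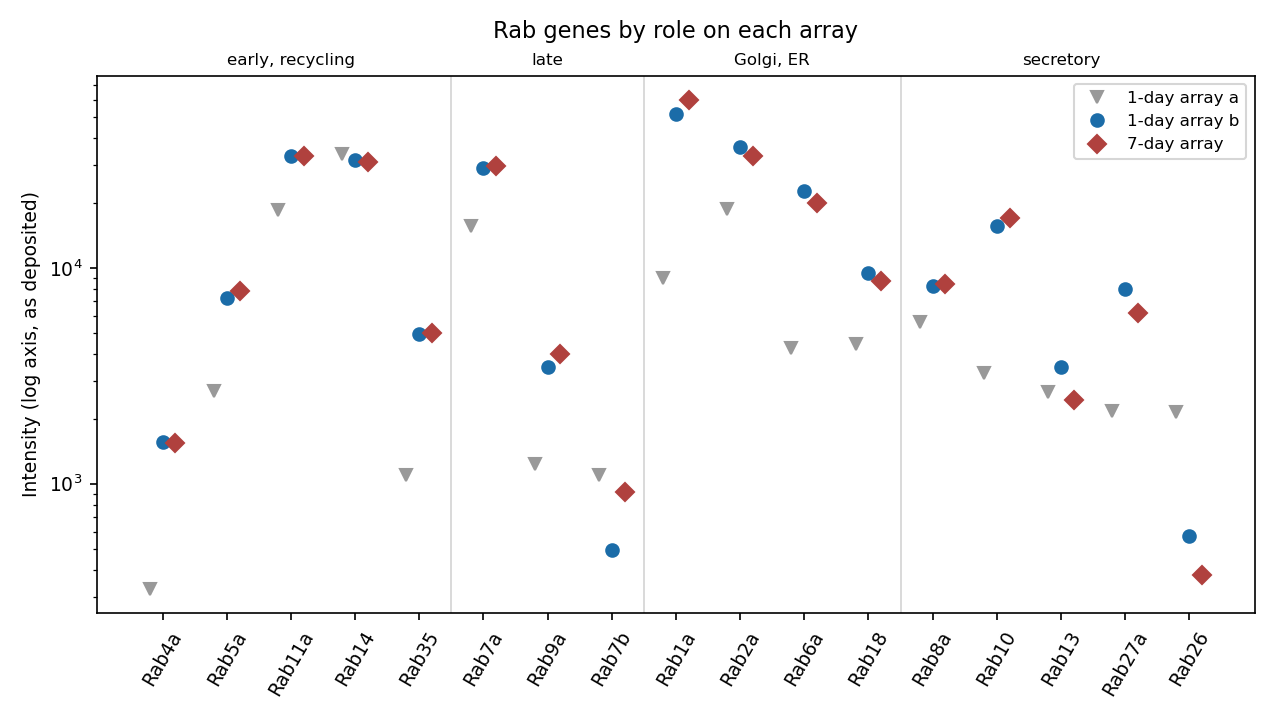
Intensity on each of the 3 arrays (log axis, as deposited) for 17 Rab genes, in order of the compartment they serve; levels of different probe sets are not comparable. For most genes the symbols of 1-day array b and the 7-day array nearly touch, as for Rab11a at 32906 and 33005, while 1-day array a lies apart from them, as for Rab10 at 3248.

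Rabs of the early and recycling endosome read nearly alike on array b and the 7-day array. Of the 14 past the filter, 8 were lower and 6 higher, with a median of -0.02. Rab5 proteins drive the fusion of incoming vesicles into early endosomes. Rab5a read 2682 on array a, 7220 on array b and 7798 on the 7-day array, a difference of 0.11 from array b that became -0.07 with median centring. Its second probe set gave 0.05. Rab5c stood at 0.17 (-0.01 with centring) and Rab5b at -0.09. The probe sets of Rab5b disagreed, with 0.39 and 0.29 on 2 dimmer ones past the filter.

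The Rabs that return receptors to the cell surface were as close. Rab11a, of the recycling endosome, read 18610 on array a, 32906 on array b and 33005 on the 7-day array, so the latter pair differed by 0.00. Rab11b read 9732, 6879 and 8068 (0.23 above array b), with -0.21 on its second probe set. Rab4a, of fast recycling, read 326, 1556 and 1551 (-0.01), and its paralog Rab4b 253, 2265 and 1843 (-0.30). Rab35, which also recycles from the early endosome, read 1096, 4944 and 4961 (0.00). Rab14, which links Golgi and endosomes, read 33656, 31560 and 30853 (-0.03), below both 1-day arrays by no more than 0.13. Its other probe sets past the filter ran from -0.38 to 0.07, and the mean over all of its probe sets was 0.29. On the probe sets that represent them, these 6 genes differed between array b and the 7-day array by at most 0.30, while Rab4a, Rab4b and Rab35 were more than 2 lower on array a on the log2 scale. Rab20, found on phagosomes and endosomes, stood at 0.08 above array b (-0.10 with centring).

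Lower endosomal Rabs were Rab15 and Rab21. Rab15, a Rab of recycling that is abundant in neurons, read 5122 on array a, 8941 on array b and 6244 on the 7-day array. It stood at -0.52 relative to array b (-0.45 with quantile normalisation) and 0.29 relative to array a, so the 7-day value lay between the 1-day values. Its probe sets disagreed, with -0.49 on one and 0.44 on another. Rab21, which takes part in integrin uptake, read 4832, 10872 and 7709 (-0.50 from array b). Its relatives Rab31 and Rab22a stood at -0.25 and -0.21, each on the probe set that represents the gene. Rab22a, at 4653, 4555 and 3929, was lower than both 1-day arrays on that probe set. Its other probe sets past the filter gave -0.12 and 0.26, and the mean of all was -0.03.

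Late endosomal and lysosomal Rabs were the class with the largest share of members above array b. Of the 7 past the filter, 6 were higher and 1 lower, where 4483 of all 9252 genes past the filter were higher. The median was 0.20 (0.24 with the intensity trend removed and 0.21 after quantile normalisation). With median centring it was 0.02 and 3 of the 7 were lower, and against array a it was 0.00. The 7 include Rab7b, which passed the filter narrowly. Rab7a, which directs fusion with lysosomes, read 15579, 28847 and 29580 on arrays a, b and 7-day (0.04 above array b, and -0.15 with centring). Its second probe set past the filter stood at -0.09 from array b. Rab9a, of transport from late endosomes to the Golgi, read 1236, 3460 and 3973 (0.20). Rab24, linked to autophagy, read 5410, 5935 and 6932 (0.22), above both 1-day arrays. Rab29, a partner of the kinase Lrrk2, differed from array b by 0.10 (-0.08 with centring).

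Rab7b was the outlying member among those past the filter, which it passed by only 0.06. Its array b value lay below the cut of that filter (759) and of a filter on array b and the 7-day array (614). It thus passed each through arrays on which it read higher, the 7-day array among them. It acts between late endosomes and the Golgi, and it read 1092 on array a, 491 on array b and 915 on the 7-day array, which is 1.86 times the array b value. The difference of 0.88 from array b became 0.52 with quantile normalisation, under 1.5-fold, and 0.68 with the intensity trend removed. Since the 7-day value lay below that of array a (-0.25), the 1-day values enclosed it. A dimmer second probe set of Rab7b, below the filter, read 346, 149 and 104, a difference of -0.46 from array b and opposite in sign. Rab32, a Rab of lysosome-related organelles, had the same shape as the brighter Rab7b probe set, at 2896, 1001 and 1314 (0.39 from array b and -1.13 from array a). Rab12, which sends receptors to lysosomes, was the member below both, at 25940, 18271 and 16759 on the probe set that represents it. Its other probe set past the filter read 231, 2539 and 1440, between the 1-day values (-0.81 from array b and 2.56 from array a).

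Golgi and ER Rabs differed little from array b. Of the 10 past the filter, 6 were below array b and 4 above, near the 51.5% lower among all genes. Their median was -0.13 (-0.10 with quantile normalisation) and 0.00 over all 15 members, and none of the 10 was further from array b than 0.30. Rab1a, which brings cargo from the ER to the Golgi, read 8995 on array a, 51368 on array b and 59746 on the 7-day array (0.22). Its near-identical paralog Rab1b stood at -0.18 (360, 5823 and 5131), but its 4 probe sets past the filter ran from -0.18 to 0.45. Since transcripts so alike may share probes, the difference between Rab1a and Rab1b is uncertain.

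Other Golgi members were as close on the probe sets that represent them. Rab2a, which acts between ER and Golgi and in dense-core granule maturation, read 18618, 36129 and 33113 (-0.13), and Rab2b 7698, 14021 and 11477 (-0.29), with all 4 probe sets of the pair lower than array b. Rab6a, of transport within and back from the Golgi, read 4245, 22789 and 19969 (-0.19, and -0.24 on a second probe set). Rab18, of the ER and lipid droplets, read 4413, 9475 and 8678 (-0.13). Rab33a, at 3106, 3348 and 2708, was lower than both 1-day arrays, while Rab33b stood at 0.10 and Rab34 at 0.06 relative to array b, both below 0 with centring, and Rab6b at 0.15 (-0.02 with quantile normalisation). A dimmer probe set of Rab34 past the filter read 1723, 852 and 1357, a difference of 0.66 (0.48 with centring).

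Secretory Rabs had the lowest class median relative to array b, -0.31 (-0.28 with the intensity trend removed and -0.25 after quantile normalisation), with 4 of 6 members lower. With 6 members, of which 1 (Rab26) passed the filter through array a alone, the median is loosely placed, and it was -0.24 over the 5 that passed a filter on array b and the 7-day array and -0.10 over all 8. Rab27a, which docks granules at the plasma membrane, read 2171 on array a, 8006 on array b and 6199 on the 7-day array (-0.37). A second probe set past the filter gave 0.01 and another, below it, 0.00, so the difference rests on the brightest. Rab13, known for junctions and surface delivery, read 2669, 3459 and 2438 (-0.50), the lowest of its 3 values being the 7-day one.

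Rab26, a Rab of secretory granules in gland cells, read 2156, 571 and 378. The 7-day value was below both 1-day values (-0.58 from array b, -2.46 from array a). It passed the filter through array a, the array against which it is lowest, and did not pass one on array b and the 7-day array. Rab8a and Rab10, of exocytic traffic from the Golgi to the cell surface, did not share the lower values. Rab8a read 5607, 8211 and 8416 (0.04), and Rab10 read 3248, 15651 and 17077 (0.13). Both turned below 0 with centring, to -0.15 and -0.06. Rab8b, at 14814, 15938 and 13463 (-0.24), was lower than both 1-day arrays on the probe set that represents it. Its second probe set past the filter gave -0.27 from array b but 0.95 from array a, between the 1-day values. Of the 4 Rabs outside these classes, 2 passed the filter: Rab28 read 6564, 20409 and 15355 (-0.41) and Rab40c differed from array b by 0.01.

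**Figure D2:**
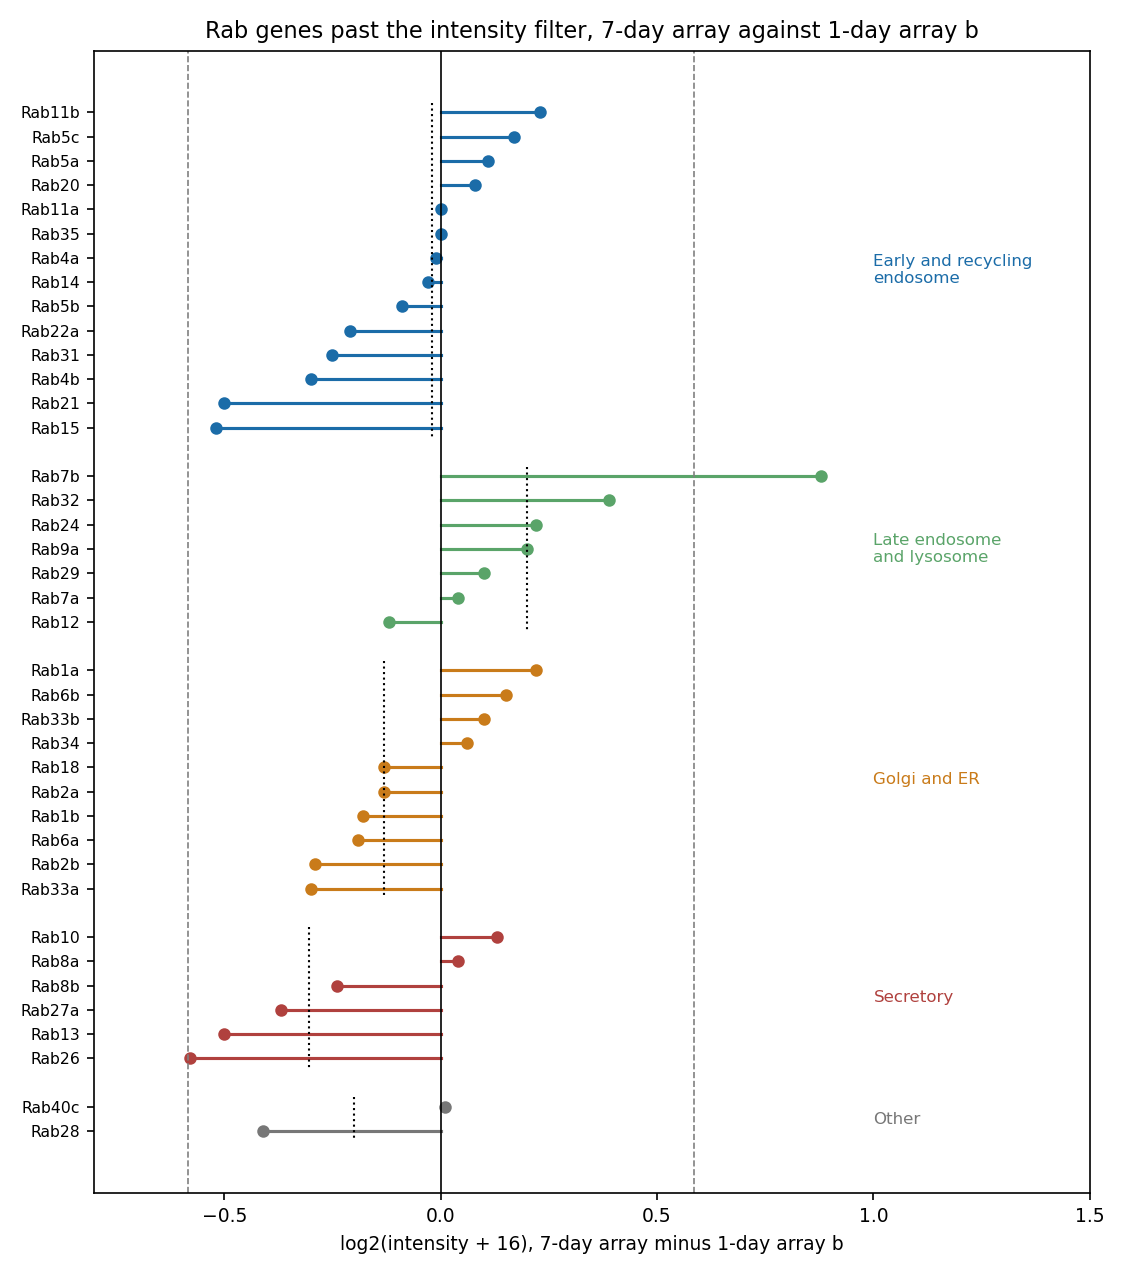
Difference of the 7-day array from 1-day array b in log2(intensity + 16) for the 39 Rab genes past the filter, by class, with dotted lines at class medians and dashed lines at 1.5-fold. Late endosomal genes lie mostly right of 0 (median 0.20) and secretory genes mostly left (median -0.31), and Rab7b at 0.88 is the only gene beyond a dashed line.

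Relative to array b, the class medians were -0.02 for early and recycling, 0.20 for late endosomal, -0.13 for Golgi and ER and -0.31 for secretory Rabs. The 21 endosomal members past the filter together had 0.00. Over all members, the filter set aside, they were -0.02, 0.20, 0.00 and -0.10, and without Rab26 the secretory median past the filter was -0.24. Each class overlapped every other in its range. The order of the classes was not the same relative to array a. There the medians past the filter were 0.94 for early and recycling and 0.81 for Golgi and ER Rabs. Secretory Rabs had 0.23, and late endosomal Rabs had the lowest, 0.00. The members are not replicates of a condition, and with 1 array a side no test of a difference between classes was made.

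Set against array a instead, the Rab genes read higher at 7 days. Of the 39, 27 were above array a and 12 below, with a median of 0.67, against a median of 0.08 over all genes. The 1-day arrays themselves parted in the same manner. On array a, 15 of 39 Rab genes (38.5%) were at least 2-fold lower than on array b, against 22.9% of all genes, and 4 were at least 2-fold higher, against 17.1%. The median of array a minus array b was -0.82 for the Rabs and -0.10 for all genes. The median was -1.05 for early and recycling, 0.10 for late endosomal, -0.91 for Golgi and -0.46 for secretory members. Array a is the one with the high beta-actin ratio, whose part in these values was not tested.

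Over both 1-day arrays, 14 of 39 Rabs (35.9%) lay above both on the 7-day array and 7 (17.9%) below both, where 25.5% and 24.1% of all genes did. On the probe sets that represent the genes, the 14 were Rab1a, Rab5a, Rab5c, Rab7a, Rab8a, Rab9a, Rab10, Rab11a, Rab20, Rab24, Rab29, Rab34, Rab35 and Rab40c. For each, the smaller of the 2 distances was at most 0.22. With median centring the counts were 6 and 2, for partly different genes. Of the 14, Rab1a, Rab9a and Rab24 stayed above both, joined by Rab11b, Rab7b and Rab32. Most of the 14 therefore rest on distances smaller than the shift between scalings. Of the 7 below both, Rab26 stayed so with centring, joined by Rab6b. The 7, each on the probe set that represents the gene, were Rab26, Rab22a, Rab33a, Rab8b, Rab13, Rab12 and Rab14. Some of the 14 had a second probe set past the filter. That of Rab5a was also above both 1-day arrays. Those of Rab7a (-0.09 from array b), Rab10 (-0.02), Rab11a (-0.13), Rab20 (0.32) and Rab34 (0.66) lay between the 1-day values.

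**Figure D3:**
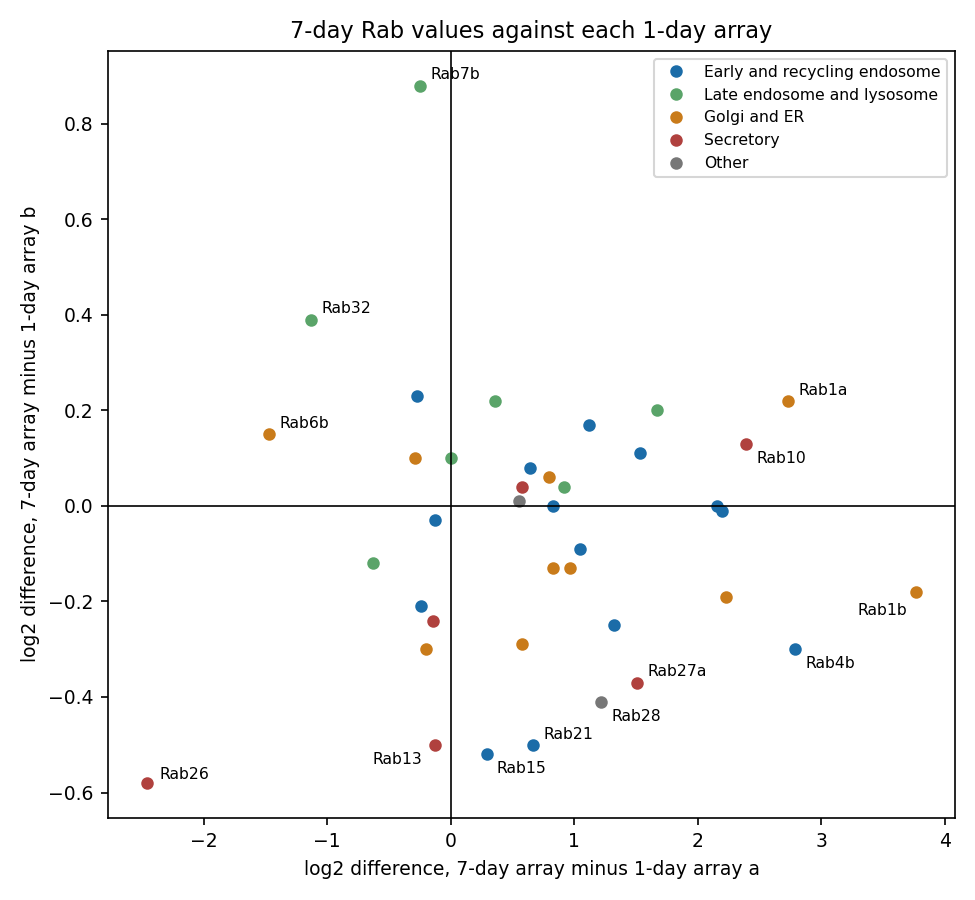
Difference of the 7-day array from 1-day array b (vertical axis) against that from 1-day array a (horizontal axis) in log2(intensity + 16), for the 39 Rab genes past the filter. The points spread from -2.46 to 3.77 horizontally and from -0.58 to 0.88 vertically, so array a sets most of any mean over the 1-day arrays.

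Probe sets of the same gene give a check that needs no second animal. Of the Rab genes, 18 had more than 1 probe set past the filter (43 probe sets), and the probe sets of 8 genes agreed in the sign of the difference from array b while those of 10 did not. All were lower for Rab2a, Rab2b, Rab6a, Rab8b and Rab12, and all were higher for Rab5a, Rab20 and Rab34. The median range within a gene was 0.31, wider than the class medians given above for early, late endosomal and Golgi Rabs, and as wide as that for secretory Rabs. For array a minus array b the median range within a gene was 1.94. It reached 4.41 for Rab1b, 3.88 for Rab11b and 3.87 for Rab12. The probe sets of Rab12 read 25940 and 231 on array a against 18271 and 2539 on array b. The offset of array a was thus not the same for all probe sets of a gene.

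**Figure D4:**
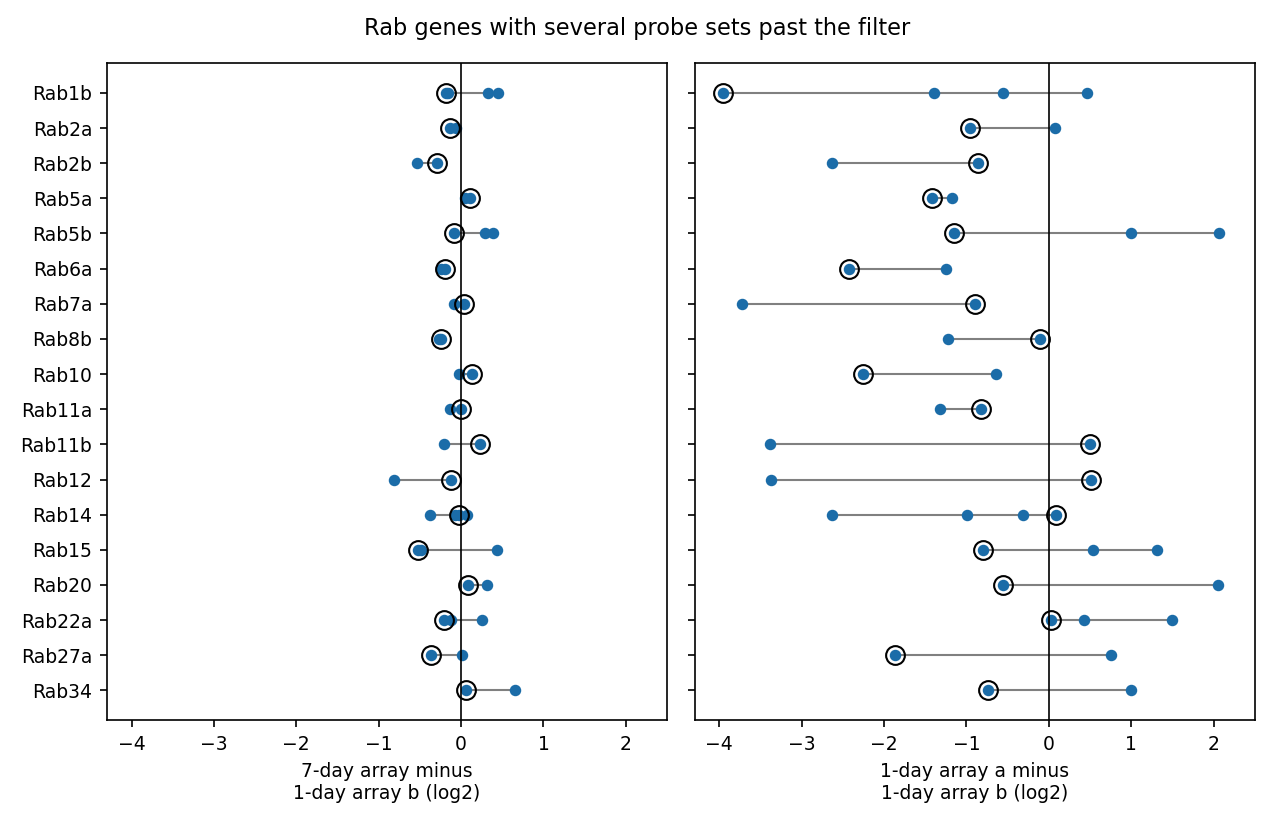
Log2 difference of each probe set past the filter for the 18 Rab genes with several, for the 7-day array minus 1-day array b (left) and 1-day array a minus 1-day array b (right); circles mark the probe set used for the gene and lines join probe sets of a gene. The lines are short on the left (median range 0.31) and long on the right (1.94).

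Of the 13 Rab genes below the filter, the epithelial Rab25 read 1803, 392 and 178 on arrays a, b and 7-day, Rab38 2168, 458 and 399, and Rab43 1116, 323 and 322, and these 3 were lower than both 1-day arrays at 7 days. Rab23, a regulator of hedgehog signalling, read 333, 433 and 646 and was the one above both. Rab27b, a granule Rab like Rab27a, read 1882, 322 and 411, and its 0.34 above array b turned to -0.02 with quantile normalisation. A dimmer probe set of Rab27b read 1016, 210 and 67.3, below both 1-day arrays and -1.44 from array b. Rab37, another granule Rab, read 616, 11.9 and 46.4. Rab9b, Rab17, Rab19, Rab30, Rab36, Rab39a and Rab40b lay between the 1-day values. Of these 13, 1 (Rab36, at 107, 1249 and 975) passed a filter on array b and the 7-day array.

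The genes that control Rabs differed as little. Of 163 genes listed as Rab carriers, prenylation genes, exchange factors, GTPase-activating proteins and effectors, 141 were on the array and 111 passed the filter. Relative to array b, 59 of the 111 were lower (53.2%), with a median of -0.04, and 5 differed at least 1.5-fold (1 higher and 4 lower), where 7.33% of all genes did. Against both 1-day arrays, 25 were above and 24 below.

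By role, carriers and prenylation genes had a median of -0.02 (6 genes), exchange factors -0.12 (25) and GTPase-activating proteins 0.04 (28). Endosomal effectors had -0.04 (24), Golgi effectors 0.00 (18) and secretory effectors 0.11 (12). Against array a these medians were 1.19, -0.43, 0.28, 0.05, 0.76 and -0.40, in the same order. In the list of carriers and prenylation genes, Praf2 (-0.71) and Rabac1 (-0.18) were lowest and Arl6ip5 (0.25) and Rabggta (0.19) highest. The exchange factor for Rab5, Rabgef1, stood at -0.54 and Rab3ip, which activates Rab8, at -0.39, while Mon1a, part of the exchange factor for Rab7, was at 0.55 and Dennd6b at 1.35. Of the GTPase-activating proteins, Usp6nl (-0.81) and Sgsm1 (-0.62) were below both 1-day arrays, and Tbc1d13 (0.52) and Sgsm2 (0.29) above both.

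Among effectors, the endosomal Rbsn (-0.70) and Vps39 (-0.58) were lowest and Osbpl1a (0.55) and Rabepk (0.51) highest. For the Golgi these were Golga2 (-0.54) and Golga5 (-0.42), and Kif20a (0.40) and Golgb1 (0.20). For secretion they were the granule motor gene Myo5a (-0.52) and Mlph (-0.23), and Ehbp1 (0.46) and Rph3al (0.52), a binding partner of Rab3 and Rab27. Values in these last paragraphs are differences from array b unless array a or both 1-day arrays are named. The differences of the named genes from array b kept their sign with quantile normalisation, median centring and removal of the intensity trend.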

How the data were processed

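The authors deposited 1 linear intensity per probe set and array for 31099 probe sets. That these were scaled is read from the values, whose trimmed means nearly match across arrays, though their medians do not. The method is not given in the sources used here. Groups and replicate letters come from the sample titles. Control probe sets (57) were left out. Values were used as log2(intensity + 16), which shrinks differences of dim probe sets. Of 31042 gene probe sets, the 15521 with a mean over the 3 arrays at or above the median were kept. Of the probe sets, 20826 had 1 symbol, 436 several and 9780 none. Symbols were updated by Entrez identifier through RefSeq's table of GRCr8, which changed no Rab name.

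All 3 arrays entered 1 limma fit (lmFit, then eBayes with trend). Its two-sided p-values were adjusted by Benjamini-Hochberg over all kept probe sets, with a threshold of 0.05. The 1-day pair supplies its single residual degree of freedom (1). The fit was also tried on simulated data. No outcome of that trial is given here, and nothing about the power of the fit on these arrays is drawn from it. Differences between single arrays, class medians and counts are descriptions. The members, classes and lists were chosen with earlier results of these data known. Rabs named with values are a core set by role, 5 at each end of the order against 1-day array b, up to 5 outside both 1-day arrays on each side, and relatives of these. For each list of regulators, the 2 highest and 2 lowest are named. Alternatives were pseudocounts of 1 and 64, quantile normalisation, median centring, removal of a loess trend (span 0.5), averaging a gene's probe sets, other filters, other limma settings and leaving out each 1-day array. R 4.3.3, limma 3.58.1, Python 3.11.15, pandas 2.3.3 and matplotlib 3.10.9 were used.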

Additional observations from a re-analysis of the deposited data

How the results depend on the processing

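Limma called 0 probe sets under each scaling, pseudocount, filter and limma setting tried. Without one of the 1-day arrays it has no residual degree of freedom and was not run. With median centring, 6 Rab genes lay above both 1-day arrays where 14 had, and 2 lay below both where 7 had. The genes were partly different ones. With a single 1-day array left for comparison, the counts ran from 19 to 27 above it and from 12 to 20 below it. The median of the Rabs against array b ran from -0.19 (centring) to 0.00 (no filter), that of Golgi and ER Rabs from -0.31 to 0.00 and that of secretory Rabs from -0.49 to -0.10 under the same pair of settings. Against the mean of both 1-day arrays the Rab median was 0.35, and from 0.11 (trend removed) to 0.87 (centring) under other scalings. It was -0.01 without 1-day array a and 0.67 without 1-day array b. Of 174 values of 29 single Rab genes under alternatives, 154 had the sign of the main value. No paired analysis was possible because the groups share only the replicate letter a. The number of arrays, the quality of 1-day array a and dim probe sets limit what can be shown.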

Other observations

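Of the probe sets left out because they name more than 1 gene, 3 are annotated to Rab1a and Rab1b together. With arrays in the order 1-day a, 1-day b and 7-day, they read 1394, 132 and 402, then 1396, 2399 and 2378, and last 85.6, 3483 and 2564. The first is below the intensity filter. The differences of the 7-day array from array b were 1.50, -0.01 and -0.44, so probe sets annotated to the same pair of genes ran in both directions.

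Among genes below the filter, Rab19, a Golgi Rab, read 1715 on 1-day array a, 74.6 on array b and 319 on the 7-day array, a difference of 1.89 from array b and of -2.37 from array a. A dimmer probe set of Rab30 stood at -1.88 from array b, while the one that represents the gene stood at 0.98. These genes were chosen after their values were seen.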
